A study of Mus musculus with 8 samples.

Results

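The S100 genes encode small calcium-binding proteins, and 10 of them were followed here in embryonic mouse lung: S100g, S100a1, S100a4, S100a6, S100a8, S100a9, S100a10, S100a11, S100a13 and S100b. The group was assembled around S100g because its signal was much lower in lungs that misexpress MIA, a small secreted protein known from melanoma cells and from cartilage, and the other members are its relatives. Every probe set annotated to exactly 1 of these symbols was taken. That gave 13 of 45037 probe sets on the E18.5 array, for 9 of the 10 genes, and 16 of 12422 probe sets on the older E11.5 array, for the same 9 genes. The probe set that lists S100a11 also lists other symbols on both arrays, so no value is given for S100a11.

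The series holds 8 Affymetrix arrays of FVB/N mouse tissue. At E18.5, 3 bitransgenic lungs, which carry both transgenes of an SP-C/MIA overexpression model, were compared with 3 lungs of single transgenic control embryos. SP-C is surfactant protein C, whose promoter is used to drive transgenes in distal lung epithelium. The labels do not say which transgene the controls carried, nor whether an array holds 1 embryo or a pool, so the spread between arrays may be partly technical. At E11.5, 1 array of lung and 1 array of trachea were measured, with no transgene named in the labels.

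Mia, the misexpressed gene, averaged 38537 ± 6207 in bitransgenic lungs and 959 ± 194 in control lungs (signal, SD, n = 3 each), and all bitransgenic values were above all control values. Sftpc, the defining gene of the distal epithelium, had a signal of 85319 ± 11417 in bitransgenic lungs and 84710 ± 3667 in control lungs (SD, n = 3 each). The 3' to 5' signal ratio of Actb, a sign of RNA quality, was 1.65, 1.51 and 1.61 in bitransgenic lungs and 1.501, 1.465 and 1.28 in control lungs. It was higher on every bitransgenic array than on any control array, and moved with the group in each E18.5 comparison below.

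S100 proteins are built around a pair of EF-hand loops, which bind calcium in most of them, and the calcium-bound form of most members exposes a surface that holds a target protein. S100g, also called calbindin-D9k, is the exception in this group: it buffers and carries calcium in the cytosol, is best known from the vitamin D-dependent absorptive epithelium of the gut, and in mouse lung is known from alveolar type II cells. S100a8 and S100a9 form calprotectin, an abundant product of neutrophils, S100a10, which does not need calcium for it, joins annexin A2 in a membrane complex, and S100b is widely used as a marker of glia.

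The genes are not spread evenly over the genome. On GRCm38, 8 of the 10 members lie on chromosome 3, and the other two are S100b on chromosome 10 and S100g on chromosome X (162961992 to 162964599). Of the 8, 6 members, in the order S100a1, S100a13, S100a4, S100a6, S100a8 and S100a9, lie within 184.7 kb. S100a11 and S100a10 follow 2.82 Mb further on, within 44.1 kb. S100a1 and S100a13 point away from each other, and 204 of the 300 bases of their promoter windows are shared. Their gene spans overlap by 98 bases, but the starts used for the promoter windows lie apart. S100g, with the largest difference between the groups, is therefore outside the chromosome 3 cluster.

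Promoter windows were found for 9 of the 10 members in the RefSeq-derived table for GRCm38.p6, and not for S100a10. The windows are shown of the 4 genes whose bitransgenic and control signals did not overlap on the brightest probe set of the gene. They were thus picked on the contrast that was used to choose the group. Each runs from 250 bases before the annotated start to the first 10 bases after it, 5′ to 3′ on the gene's own strand, and capitals mark the motifs found.
S100g (chrX:162964590-162964849, minus strand): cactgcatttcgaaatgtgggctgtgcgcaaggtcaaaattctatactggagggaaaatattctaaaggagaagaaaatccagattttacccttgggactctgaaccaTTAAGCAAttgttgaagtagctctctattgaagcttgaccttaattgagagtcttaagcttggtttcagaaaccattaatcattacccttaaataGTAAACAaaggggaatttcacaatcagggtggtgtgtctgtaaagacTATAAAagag
S100a6 (chr3:90612644-90612903, plus strand): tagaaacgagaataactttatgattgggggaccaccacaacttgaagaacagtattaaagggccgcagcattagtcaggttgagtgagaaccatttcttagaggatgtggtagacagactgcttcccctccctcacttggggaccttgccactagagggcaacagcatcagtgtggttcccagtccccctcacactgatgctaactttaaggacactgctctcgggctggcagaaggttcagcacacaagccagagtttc
S100a8 (chr3:90668821-90669080, plus strand): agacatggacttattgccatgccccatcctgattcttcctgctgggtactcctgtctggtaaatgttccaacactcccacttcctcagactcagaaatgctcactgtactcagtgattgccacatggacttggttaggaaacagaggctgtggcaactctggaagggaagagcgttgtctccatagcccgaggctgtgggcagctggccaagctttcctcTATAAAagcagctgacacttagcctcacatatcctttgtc
S100a9 (chr3:90695712-90695971, minus strand): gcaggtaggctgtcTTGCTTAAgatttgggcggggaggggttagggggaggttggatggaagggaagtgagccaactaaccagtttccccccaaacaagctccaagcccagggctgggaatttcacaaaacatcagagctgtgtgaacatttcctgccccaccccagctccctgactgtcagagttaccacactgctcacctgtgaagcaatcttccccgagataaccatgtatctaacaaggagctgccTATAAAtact

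The whole 300-base windows were searched on both strands for 4 motifs, chosen after the sequences had been seen: the TATA box TATAAA, the forkhead core GTAAACA, the AP-1 site TGANTCA and the C/EBP site TTGCNNAA. TATAAA was present in 4 of 9 members, S100g, S100a4, S100a8 and S100a9, and in 13.6% of the 32851 windows in the table. In S100a4 and S100a8 it began 31 and 30 bases before the annotated start, and in S100g and S100a9 it began at the annotated start itself. GTAAACA was found in S100g alone among the members, 47 bases before the start, and in 3.65% of all windows. TTGCNNAA was found in S100g and S100a9 and in 10.8% of all windows. TGANTCA was found in S100a11 alone among the members and in 7.81% of all windows. The window of S100a6 held none of the 4. No motif overlapped another, and no motif was common to all 4 windows shown.

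The E18.5 values are MAS5 signals, a linear brightness per probe set that is scaled by a trimmed mean. Log2 changes are bitransgenic minus control on the scale log2(signal + 86), where 86 is a pseudocount at the 20th percentile of the table. It shrinks the changes of dim genes. The contrast between bitransgenic and control lungs was used to choose the group, so the members' values in it are a description, with no p-value and no call. Standard errors come from limma fitted to all probe sets. In bulk lung, fewer cells of a type and less RNA per cell cannot be told apart.

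S100g, the calcium buffer, had the lowest log2 change of the group. Its single probe set (1448964_at) read 61.1, 201 and 27.9 in bitransgenic lungs, against 623, 1216 and 1218 in control lungs. All bitransgenic values were below all control values, and 2 of the 3 were below the pseudocount. The means were 96.5 ± 91.7 in bitransgenic lungs and 1019 ± 343 in control lungs (SD, n = 3 each). The ratio of the bitransgenic mean to the control mean was 0.0947. The log2 change was -2.66 (SE 0.39), and its size depends on the pseudocount: it was -3.80 with none and -1.61 with one 4 times as large. In a fit that also held the Actb ratio it was -1.91.

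S100a6, or calcyclin, a growth-regulated gene whose protein binds the calcyclin-binding protein Cacybp, was the other member more than 2-fold lower at a bright signal. Its probe set (1421375_a_at) read 3809, 3536 and 2562 in bitransgenic lungs, against 6303, 7321 and 10216 in control lungs. The brightest bitransgenic lung was below the dimmest control lung, and all 6 signals were far above the pseudocount. The means were 3303 ± 656 in bitransgenic lungs and 7947 ± 2029.9 in control lungs (SD, n = 3 each), a ratio of 0.416. The log2 change was -1.24 (SE 0.21). It was -1.26 with no pseudocount and -0.84 in the fit that held the Actb ratio.

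**Figure D1:**
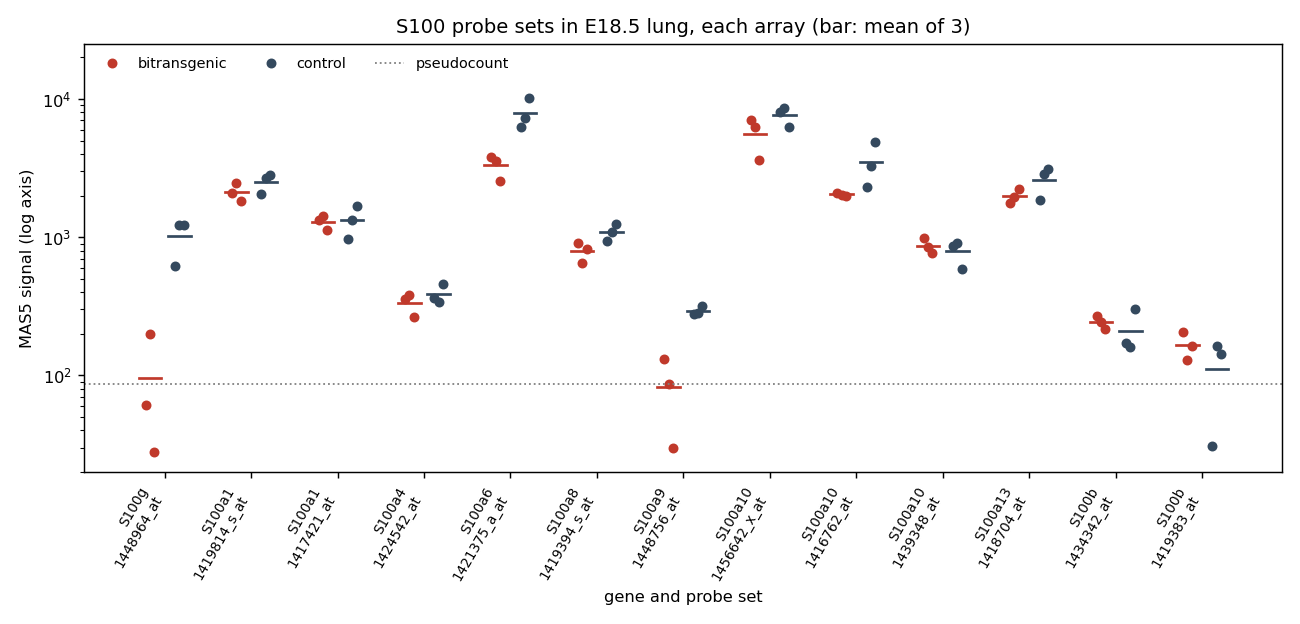
MAS5 signal on a log axis for each of the 13 S100 probe sets in E18.5 lung, with 1 point per array (bitransgenic red, left; control dark, right), a bar at the mean of 3 arrays and a dotted line at the pseudocount of 86. S100g and S100a9 are the probe sets whose bitransgenic mean is near the dotted line, while S100a6 is lower in the bitransgenic lungs with no signal below 2562.

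The calprotectin pair was also lower in bitransgenic lungs. S100a8 (1419394_s_at) read 909.9, 656 and 819 in bitransgenic lungs, against 947, 1088 and 1239 in control lungs. The groups did not overlap, but bitransgenic 1 and control 1 were close. The log2 change of S100a8 was -0.42 (SE 0.18). S100a9 (1448756_at) read 131, 87.3 and 29.9 in bitransgenic lungs, against 278, 283 and 320.45 in control lungs. These signals did not overlap either, and its log2 change was -1.22 (SE 0.28). S100a9 is dim: its mean was under the filter of the test, so the size of its change depends on the pseudocount. The means of S100a9 were 82.6 ± 50.6 in bitransgenic lungs and 294 ± 23.2 in control lungs (SD, n = 3 each).

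Of the other neutrophil markers tested, 1 fell and the rest did not pass. Of 14 on the array, 8 passed the filter, and the 1 that fell was Lcn2 (a lipocalin that epithelium also makes, log2 change -2.70, SE 0.42, limma adjusted p = 0.0232). Over all genes tested 0.673% passed an adjusted p of 0.05 in either direction. At an unadjusted p under 0.05 there were 4 of the 8, against 1223 of all 12625 genes. For 5 of the 8 all bitransgenic values were below all control values, where 7.56% of all genes tested were. The 7 that did not pass were Stfa2l1, Ngp, Mmp9, Ltf, Csf3r, Chil3 and Mmp8, with log2 changes of -1.04, -0.81, -0.62, -0.35, -0.36, 0.20 and -0.02 (limma adjusted p = 0.0771 to 0.991). Of these, Csf3r, Chil3 and Mmp8 had groups that overlapped, and Chil3, the brightest, read 6498 ± 1310 in bitransgenic lungs and 6138 ± 3229 in control lungs (SD, n = 3 each). The median over the 8 was -0.49, against 0.01 over all genes tested. Their summed signal ran from 8534 to 10268 in bitransgenic lungs and from 12555 to 15353 in control lungs. Without Lcn2 the sums overlapped, at 7794 to 10063 in bitransgenic lungs and 7291 to 13341 in control lungs. On average Chil3 held most of that sum and had the widest spread, so the overlap says little about the dimmer genes. The defining granule genes were dim in both groups: Mpo read 203 ± 86.6 in bitransgenic lungs and 259 ± 100.4 in control lungs, and Elane read 124 ± 88.3 in bitransgenic lungs and 78.7 ± 34.2 in control lungs (SD, n = 3 each). The part of neutrophils in the S100a8 and S100a9 values was not tested. These 7 genes, Mpo and Elane were not picked by the rule for named genes and are given with their values already known.

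S100a10, the annexin A2 partner, gave different answers from its 3 probe sets. The brightest (1456642_x_at) read 7012, 6238 and 3606 in bitransgenic lungs, against 8078, 8621 and 6230 in control lungs. These groups overlapped, and the log2 change was -0.48 (SE 0.24). The next (1416762_at) read 2094, 2029 and 2003 in bitransgenic lungs, against 2323, 3249 and 4919 in control lungs. Here the groups did not overlap, with a log2 change of -0.69 (SE 0.23), and the control values were far apart while the bitransgenic values were nearly equal. The dimmest (1439348_at) read 991, 845 and 767 in bitransgenic lungs, against 864, 915 and 588 in control lungs, with a log2 change of 0.14 (SE 0.20). Probe sets with the suffix x can share probes with other transcripts. The 3 probe sets of S100a10 thus do not fix a direction for the gene.

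S100a1, best known from heart muscle where it binds the ryanodine receptor, differed by little. Its brighter probe set (1419814_s_at) read 2092, 2482 and 1840.2 in bitransgenic lungs, against 2053, 2666 and 2821 in control lungs. The groups overlapped, with a log2 change of -0.22 (SE 0.17). The other probe set (1417421_at) had a log2 change of -0.01 (SE 0.20). S100a13, which takes part in the export of FGF1, shares its start region with S100a1 and read 1774, 1968 and 2249.6 in bitransgenic lungs, against 1860.1, 2887 and 3092 in control lungs. The groups of S100a13 overlapped through control 1, and the log2 change was -0.35 (SE 0.20). In the fit with the Actb ratio, S100a1 and S100a13 had log2 changes of 0.07 and -0.04, so that of S100a1 changed sign.

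S100a4, a marker of fibroblasts and macrophages, was dim and similar in both groups. It read 358, 381 and 267 in bitransgenic lungs, against 365, 339 and 459.96 in control lungs. The log2 change of S100a4 was -0.17 (SE 0.23), and its sign was not stable: it was 0.08 when the Actb ratio was fitted too, 0.05 with array weights and 0.06 without control 3 and bitransgenic 3. S100b was the one gene of the group with log2 changes above 0 on all its probe sets. The brighter (1434342_at) read 268, 243 and 218 in bitransgenic lungs, against 171, 160.2 and 301 in control lungs, with a log2 change of 0.18 (SE 0.26). The dimmer (1419383_at) read 205, 130.2 and 163 in bitransgenic lungs, against 31.1, 163 and 142 in control lungs, with a log2 change of 0.41 (SE 0.32). Both pairs of groups overlapped, and both probe sets of S100b were below the filter.

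**Figure D2:**
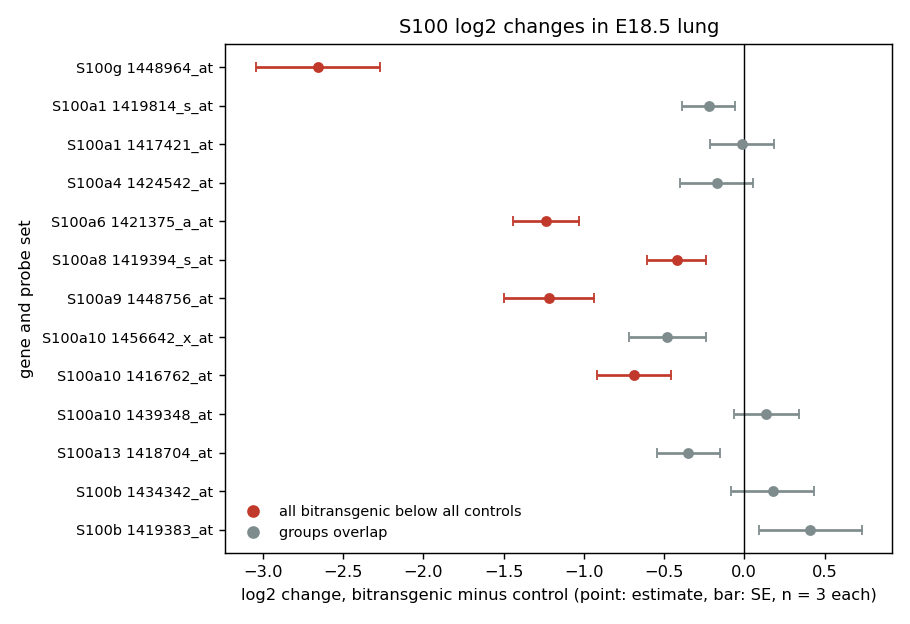
Log2 change, bitransgenic minus control, for each S100 probe set in E18.5 lung, with the limma standard error (n = 3 each). Red points mark the 5 probe sets with all bitransgenic values below all control values (S100g, S100a6, S100a8, S100a9 and 1 of 3 for S100a10), grey points the 8 whose groups overlap.

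Over the whole group, 10 of 13 probe sets had a log2 change below 0 and 3 had one above 0. Groups did not overlap for 5 probe sets, all lower in bitransgenic lungs. At the level of genes, with the brightest probe set standing for each, 7 of the 9 measured members passed the filter on low signal, and S100a9 and S100b did not. S100g passed it only through its control values. Of the 7, 3 had groups that did not overlap, all lower, where 7.56% of 12625 genes tested had bitransgenic lungs below the controls. Since the group was chosen on this contrast, nothing is read from this count, and it was 5 without control 1. The median log2 change over the 7 was -0.42, against 0.01 over all genes.

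Many S100 probe sets also shared an order among the arrays of a group. The 13 probe sets come from 9 genes and are not independent, and the arrays named are those with the largest counts. In bitransgenic lungs array 3 was the lowest of its group for 10 of 13 probe sets, where it was the lowest for 30.2% of all probe sets. In control lungs array 1 was the lowest for 9 of 13, against 37.6% of all probe sets, and array 3 was the highest for 10 of 13, against 45.3%. Bitransgenic 3 was the highest of its group for 47.4% of all probe sets. Control 3 was also the control with the lowest Actb ratio. Control 3 and bitransgenic 3 had the highest median signals of their groups, at 460 and 464. Without control 3 and bitransgenic 3 together, the log2 change of S100a6 was -0.87 and that of S100g was -2.23.

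The genes whose profile lay nearest to that of S100g were Pon1, Retnla, Gjb6, Klk13 and Lcn2. Likeness was the root mean square difference of log2 values over the 6 E18.5 arrays after each gene was centred on its own mean, and it was 0.398 for Pon1 and 0.49 for Lcn2. Pon1 encodes a paraoxonase, Retnla a secreted resistin-like protein, Gjb6 the gap junction protein connexin-30, Klk13 a kallikrein-related peptidase and Lcn2 a lipocalin. Pon1 read 289, 672 and 356 in bitransgenic lungs, against 3554, 5293 and 3208 in control lungs. Gjb6 read 163, 317 and 177 in bitransgenic lungs, against 1052, 1592 and 938 in control lungs. In each of the nearest genes named, as in S100g, bitransgenic 2 was the brightest of its group. The order of the controls differed: control 3 was the dimmest control in Pon1 and Gjb6 and the brightest in S100g. The log2 changes of Retnla, Klk13 and Lcn2 were -2.58, -2.65 and -2.70. These genes were picked for this pattern, so their values are a description.

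**Figure D3:**
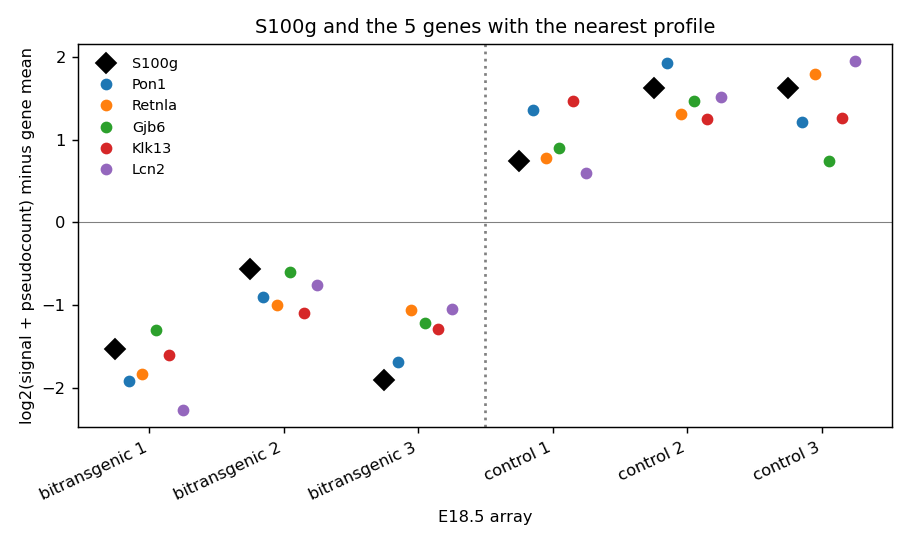
Log2(signal + 86) minus the gene's own mean over the 6 E18.5 arrays, for S100g (diamonds) and the 5 genes nearest to it (circles), with bitransgenic arrays left of control arrays. Every gene is below 0 on all 3 bitransgenic arrays and above 0 on all 3 control arrays.

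Markers of the cells that could carry S100 RNA did not all move the same way. Of 11 alveolar type II markers, 4 fell (Sftpa1, Lpcat1, Abca3 and Slc34a2, with log2 changes of -4.45, -1.19, -0.97 and -1.68) and none rose. Their summed signal was 153540 to 198660 in bitransgenic lungs and 309660 to 352080 in control lungs. Of 11 alveolar type I markers, 4 fell (Aqp5, Scnn1g, Clic5 and Rtkn2, with log2 changes of -3.65, -1.19, -1.43 and -1.47) and none rose. Their summed signal was 173430 to 201320 in bitransgenic lungs and 237070 to 256470 in control lungs. Over all genes tested 0.673% passed in either direction. In each of these lists 8 of 11 markers had an unadjusted p under 0.05, against 1223 of all 12625 genes. Bitransgenic values were all below the controls for 8 of 11 in each list, against 954 of all genes, and all above for 0. None of 15 pan-epithelial markers passed in limma, and 6 had an unadjusted p under 0.05, against the 1223 of all 12625 genes. Of the 15, 12 had log2 changes above 0, with a median of 0.29. Bitransgenic values were all above the controls for 6 of the 15 and all below for 1, against 1118 and 954 of all genes. Foxa1 and Krt19 had log2 changes of 0.85 and -0.48 (limma adjusted p = 0.0659 and 0.304), and the summed signal of the 15 was 131430 to 143150 in bitransgenic lungs and 114960 to 124670 in control lungs. The part of these cell types in the S100g values was not tested.

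For the remaining cell types at most 1 marker of a list passed in limma. Of 10 macrophage markers 1 fell, Lyz2, a lysozyme that type II cells also make (log2 change -1.28, limma adjusted p = 0.00946), and C1qc had -0.49 (limma adjusted p = 0.596). Of 9 cardiac muscle markers 1 rose, Myh7 (log2 change 0.87, limma adjusted p = 0.0293). None of 11 mesenchymal, 9 endothelial, 5 Schwann and glial or 4 cartilage markers passed in limma. At an unadjusted p under 0.05 there were 0, 7, 1 and 0, in the same order, against 1223 of all 12625 genes. Eln and Pdgfra had log2 changes of -0.24 and -0.38 (limma adjusted p = 0.586 and 0.6), and Cldn5 and Emcn -0.62 and -0.71 (limma adjusted p = 0.092 and 0.217). All 9 endothelial markers had log2 changes below 0, with a median of -0.44. For 7 of the 9 all bitransgenic values were below all control values, where 7.56% of all genes tested were. Their summed signal over the 9 was 56792 to 64399 in bitransgenic lungs and 75688 to 106620 in control lungs. Fabp7 and Sox10, the glial markers with the smallest p, had 0.72 and -0.47 (limma adjusted p = 0.33 and 0.543), and Hapln1 and Sox9 of cartilage had -0.33 and -0.27 (limma adjusted p = 0.619 and 0.747). With the Actb ratio in the fit, Lyz2, Myh7, Lcn2, Abca3, Slc34a2, Scnn1g, Clic5 and Rtkn2 did not pass, although each kept its sign. Their log2 changes in that fit were -1.11, 0.72, -1.67, -1.01, -1.45, -0.76, -1.04 and -1.18, in the same order (limma adjusted p = 0.124 to 0.695). Leaving out 1 array at a time, 6 fits in all, ended the call of Scnn1g, Clic5 and Rtkn2 in 5 fits each, of Myh7 in 4, of Lcn2 in 3, of Lyz2 in 2 and of Abca3 and Slc34a2 in 1 each. Each of these 8 genes did not pass without control 2.

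Genes of S100 receptors and partners are the next list. Of 18 tested, 0 passed an adjusted p of 0.05 in limma, where 0.673% of all genes did, so a count of 0 is near the background. At an unadjusted p under 0.05 there were 4 of the 18, against 1223 of all 12625 genes, and the median log2 change was -0.10. Bitransgenic values were all below the controls for 4 of the 18 and all above for 2, against 954 and 1118 of all genes. The summed signal of the 18, of which Ager was the brightest, was 196520 to 208330 in bitransgenic lungs and 218180 to 224730 in control lungs. Cd36, a fatty acid receptor that binds calprotectin complexes, had -0.56 and Fgf1, whose export involves S100a13, had 0.44 (limma adjusted p = 0.183 and 0.232). Ager, which encodes RAGE, the cell surface receptor of several S100 proteins and a product of type I cells, averaged 59042 ± 1776 in bitransgenic lungs and 73569 ± 2577 in control lungs (SD, n = 3 each). Its groups did not overlap, with a log2 change of -0.32 that did not pass (limma adjusted p = 0.235). The log2 change of Cacybp, the partner of S100a6, was 0.10 (limma adjusted p = 0.87). Ager and Cacybp, and Anxa2 and Vdr below, were likewise not picked by the rule for named genes.

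Annexins bind membranes in a calcium-dependent way, and several hold an S100 protein. None of 8 passed in limma, and their median was -0.08. At an unadjusted p under 0.05 there were 4 of the 8, against 1223 of all 12625 genes. Bitransgenic values were all below the controls for 2 of the 8 and all above for 2, against 954 and 1118 of all genes. Anxa1 and Anxa3 had log2 changes of 0.47 and -0.41 (limma adjusted p = 0.0962 and 0.378). Anxa2, the partner of S100a10, averaged 55116 ± 4238 in bitransgenic lungs and 50207 ± 2735 in control lungs (SD, n = 3 each). The difference was 0.13 on the log2 scale (limma adjusted p = 0.761).

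The genes of other EF-hand proteins and of calcium transport were likewise without a call. Of 25 EF-hand genes tested 0 passed in limma, 17 had log2 changes below 0 and the median was -0.03. Of the 25, 5 had an unadjusted p under 0.05, against 1223 of all 12625 genes. Spock2, a matrix proteoglycan with an EF-hand domain, had the smallest p of the list and a log2 change of -1.08 (limma adjusted p = 0.0558), followed by the neuronal calcium sensor gene Vsnl1 at -0.70 (limma adjusted p = 0.246). Of 9 genes of epithelial calcium transport and its hormone receptors 0 passed in limma and 0 had an unadjusted p under 0.05, with a median of -0.01. Rxra, the partner of the vitamin D receptor, had 0.39 and Slc8a1, a sodium-calcium exchanger, had -0.32 (limma adjusted p = 0.633 and 0.76). Vdr, the vitamin D receptor gene, read 625 ± 46.4 in bitransgenic lungs and 563 ± 137 in control lungs (SD, n = 3 each), which differed by 0.15 on the log2 scale (limma adjusted p = 0.874). Of 3 further S100 and S100-fused-type genes past the filter 0 passed in limma and 1 had an unadjusted p under 0.05, and S100a14 and S100a16 had log2 changes of -0.77 and -0.07 (limma adjusted p = 0.483 and 0.918).

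The E11.5 arrays give the S100 genes before the alveoli form, and did not enter the choice of the group. With 1 array per tissue there is no test, and the signals cannot be set against those of E18.5, which come from another array type normalized separately. Log2 ratios are lung minus trachea on the scale log2(signal + 84). A gene was compared when 1 tissue or both had a signal over 543, the median of the table, and counted as apart beyond 2-fold. On the probe set that stands for each gene 2 of the 9 measured members were compared, S100a10 and S100a13. Of these 0 were apart, where 3.55% of the 5121 genes compared were.

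S100a10 read 1894 in lung and 1886 in trachea on its brighter probe set (92539_at), a log2 ratio of 0.01. Its other probe set (162340_r_at) read 369.9 in lung and 481 in trachea, a log2 ratio of -0.32, and was below the median in both. S100a13 read 1521 in lung and 1292 in trachea on its brightest probe set (100960_g_at), a log2 ratio of 0.22. Its second (100959_at) read 1026 in lung and 946 in trachea, and another (161121_f_at) 351 in lung and 550.4 in trachea. The dimmest (161862_i_at) read 27.1 in lung and 80.8 in trachea, under the pseudocount in both. The probe sets of S100a13 thus disagreed in direction.

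The remaining members were dim in both tissues. S100a4 read 185 in lung and 204 in trachea, S100a6 read 156 in lung and 123 in trachea, and S100a8 read 221 in lung and 249 in trachea. For S100a9 the signals, 65.1 in lung and 69.1 in trachea, were under the pseudocount. S100b read 57.3 in lung and 152 in trachea. Of these genes S100a6 was the one with the higher value in lung, and all were under the median of the table. The 3 probe sets of S100a1 lay between 17.5 and 66.6 in lung and between 50.2 and 132 in trachea.

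S100g has 2 probe sets on the E11.5 array, and they pointed opposite ways. The first (160918_at) read 80.3 in lung and 19.6 in trachea, and the second (161835_at) read 15.2 in lung and 168 in trachea. Both were below the median of the table in both tissues, so no direction is given for S100g at E11.5.

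**Figure D4:**
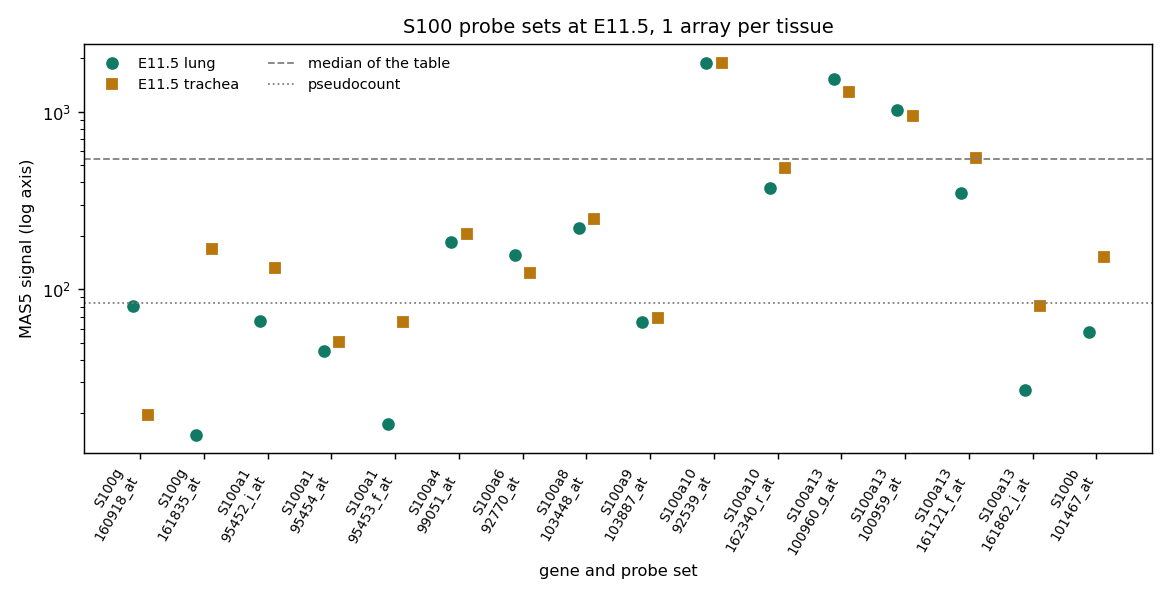
MAS5 signal on a log axis for each of the 16 S100 probe sets at E11.5, with circles for lung and squares for trachea (1 array each), a dashed line at the median of the table (543) and a dotted line at the pseudocount (84). S100a10 and S100a13 hold the probe sets above the dashed line, and both S100g probe sets lie below it.

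Between the 2 arrays at E11.5, 1 of 18 EF-hand genes and 1 of 3 calcium transport genes compared were apart, where 3.55% of all genes compared were. Spock2, of the EF-hand list, read 161 in lung and 934 in trachea (log2 ratio -2.05), and Slc8a1, of the calcium transport list, 661 in lung and 2077 in trachea (log2 ratio -1.54). Of the marker lists, Krt19 (log2 ratio 2.64) and Sftpc (2.22) were higher in lung, while Fabp7 (-2.09), Col11a1 (-2.04), Eln (-1.72), Tagln (-1.55) and Gap43 (-1.20) were higher in trachea. In lung these were 1 of 10 pan-epithelial and 1 of 4 type II markers compared. In trachea 2 of 5 glial, 1 of 3 cartilage and 3 of 10 mesenchymal markers compared were apart, with 2 of the mesenchymal ones named. No gene of the other marker lists was apart. None of 6 annexins and none of 11 S100 receptors or partners compared was apart. Anxa2 read 5867 in lung and 11205 in trachea, just inside the 2-fold limit with a log2 ratio of -0.92.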

How the data were processed

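RNA of 8 mouse samples was hybridised to Affymetrix arrays, and the authors summarised them with MAS5 (version not stated), per the labels. Each deposited table holds 1 linear intensity per probe set and array. The values show no logarithm, and their 2% trimmed mean, averaged over the E18.5 arrays, was 1500. Control probe sets were left out (64 at E18.5 and 66 at E11.5), and probe sets were named from the platform annotation. Of 45037 E18.5 probe sets 34945 had 1 symbol, 932 several and 9160 none.

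Values were analysed as log2(signal + pseudocount), with 86 at E18.5 and 84 at E11.5. For each gene the probe set of highest mean was used, kept at or above the 40th percentile of probe-set means, which left 12625 genes at E18.5. The test was that of limma 3.58.1 (R 4.3.3, lmFit and eBayes with intensity trend, two-sided, Benjamini-Hochberg over all genes, threshold 0.05), tested on simulated data. Exact permutation of 3 against 3 allows no p under 0.1. The number of arrays limits the precision.

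Members and gene lists were chosen with earlier results of these data known. Named genes were the members, Mia, of each list up to 4 genes past the threshold or else up to 2 with the smallest p, the 5 genes nearest to S100g, and at E11.5 up to 2 genes per list with the largest ratio among those apart. Alternatives covered the pseudocount, scaling, filter, probe-set choice, variance model, array weights, the Actb ratio and each array left out. Promoter windows are from RefSeq, GRCm38.p6.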

Additional observations from a re-analysis of the deposited data

How the results depend on the processing

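The log2 changes of S100g and S100a6 stayed below 0 under every alternative that gave one. That of S100g was -3.80 with no pseudocount, -1.61 with 4 times the pseudocount, -1.91 with the Actb ratio in the fit, and -3.04 to -2.37 with each array left out. The count of S100 genes with groups that did not overlap was 3 to 5 with each array left out, 5 of them without control 1. With the filter at the 60th percentile S100g was no longer among the genes tested, and the count was 2. All genes called numbered 85, against 1339 with array weights, 20 with the Actb ratio, 22 to 97 with each array left out (22 if control 2 was left out, 41 if bitransgenic 1, 36 if bitransgenic 3 and 97 if control 3) and 189 without control 3 and bitransgenic 3 together, an alternative chosen after seeing the data. The cause of these shifts was not tested. At E11.5 0 S100 genes were apart under each alternative. No paired analysis was possible because the labels number the arrays in sequence and tie no bitransgenic embryo to a control. Signals near the pseudocount, as of S100g and S100a9 in bitransgenic lungs, limit what a fold can show.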
